A study of Homo sapiens with 24 samples.

Results

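The genes described here are 8 regulators of splicing: the CDC2-like kinases CLK1, CLK2, CLK3 and CLK4, the SR protein kinases SRPK1 and SRPK2, and the RNA-binding splicing activators TRA2A and TRA2B. They were taken by gene name from the deposited bin tables, in which each gene is cut into bins (exons, parts of exons and listed introns). The 8 genes are 8 of 13236 gene groups and hold 118 of 164219 bins. Among the 118 bins are 6 of the 4769 bins that the tables list as detained introns, and 6 bins that the tables class as cassette exons. The cells were HEK293T, a human embryonic kidney cell line carrying the SV40 large T antigen, and polyA RNA was sequenced from 24 samples in 8 groups of 3. In one experiment cells received 10 µM OSMI-2, which blocks OGT, the enzyme that adds the sugar O-GlcNAc to proteins, for 2 h or 6 h. In the other they received 5 µM TMG, which blocks the enzyme that removes it (OGA, gene MGEA5), for the same times. Each drug and time had its own DMSO-treated control group. The tables hold 23 libraries, because OSMI-2 at 6 h is represented by 2; the third sample of that group was not analysed here. No other genotype or agent is named in the labels. Nothing in the labels says that the samples of a group came from separate cultures, so the p-values measure only the spread between these samples, which may be technical.

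SR proteins are splicing activators with tails rich in arginine and serine. SRPK kinases phosphorylate those tails in the cytoplasm, which allows import into the nucleus, and CLK kinases phosphorylate them further inside the nucleus, which moves them out of storage speckles. TRA2A and TRA2B bind GAA-rich RNA and promote the inclusion of nearby exons. The levels of these regulators are themselves set by splicing. CLK transcripts keep the introns around exon 4 in a large nuclear pool that can be spliced later (detained introns), or skip exon 4 and lose the reading frame. TRA2 transcripts can include a poison exon, whose early stop codon prevents the full protein.

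The exons at which these circuits act are shown here because 4 of the 6 detained introns lie beside exon 4 of a CLK gene. The TRA2 exons are the poison exons followed in the results, TRA2A bin E009 and TRA2B bins E009 and E010. Other TRA2 bins named in the results lie outside them. The sequences come from GENCODE v29 on GRCh38, on the coding strand, and were matched to the bins, which are on hg19, by width and order. Exon 4 of CLK1 lies at chr2:200860125-200860215, that of CLK2 at chr1:155268708-155268795, that of CLK3 at chr15:74622120-74622216 and that of CLK4 at chr5:178617344-178617434, all on the minus strand except CLK3. Capitals mark GAA.
CLK1 exon 4: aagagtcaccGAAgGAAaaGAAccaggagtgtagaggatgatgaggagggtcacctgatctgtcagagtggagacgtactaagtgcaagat
CLK4 exon 4: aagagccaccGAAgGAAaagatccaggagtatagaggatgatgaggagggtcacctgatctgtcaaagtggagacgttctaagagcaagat
CLK2 exon 4: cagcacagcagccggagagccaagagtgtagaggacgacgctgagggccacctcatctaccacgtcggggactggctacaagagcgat
CLK3 exon 4: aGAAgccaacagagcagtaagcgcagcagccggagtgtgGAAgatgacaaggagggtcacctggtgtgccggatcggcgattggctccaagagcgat

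CLK1 and CLK4 were identical at 85 of 91 bases of this exon (93.4%). Removing exon 4 from the annotated transcripts moved the first stop codon from after codon 484 to after codon 136 in CLK1, from 499 to 139 in CLK2, from 490 to 152 in CLK3 and from 481 to 143 in CLK4. GAA was not frequent in these exons: 35.5% of the 2580 GENCODE exons of 91 bases held at least the 3 copies of CLK1.

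The TRA2 exons were different in composition. The TRA2A exon is the bin E009, 312 bases at chr7:23561740-23562051 on hg19 (chr7:23522121-23522432 on GRCh38, minus strand), and corresponds to exon 2 of the processed transcript TRA2A-208. It held 32 copies of GAA on the coding strand, where exons of that length held a median of 6. Of 509 such exons, this one included, 0.196% held at least as many. The TRA2B exon is covered by bins E009 and E010, 276 bases together at chr3:185931577-185931852 on GRCh38, and corresponds to exon 2 of TRA2B-206, which GENCODE annotates as a target of nonsense-mediated decay. It held 28 copies against a median of 5. Of 574 exons of that length, this one included, 0.174% held at least as many. Printed below is the stretch of 30 bases with the most GAA in each exon, with GAA in capitals. These are bases 184 to 213 of the TRA2A exon and 193 to 222 of the TRA2B exon, and they are not typical stretches.
TRA2A exon: tGAAttgggGAAGAAtacacGAAgtatGAA
TRA2B exon: GAAtttGAAacgGAAGAAtGAAGAAaaGAA

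Inserted after exon 1 of the annotated transcripts, the TRA2A exon brought the first stop after 59 codons in place of 282, and the TRA2B exon after 38 in place of 288. Both stops lay inside the inserted exon. A GAA match is a count of letters and does not show binding.

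Bin counts per library summed to between 39465746 and 100161560 over the 23 libraries. VIM, expressed in HEK293T cells, was at 306 to 787 CPM (counts scaled to a common library total), PAX2 at 1.21 to 4.20 and COL1A1, a fibroblast marker, at 6.28 to 20.4, whereas LHX1 and NEFM stayed at or below 2.20; PTPRC, ALB and KRT5 were not analysed here. The slope of gene level on GC content ran from -0.647 to -0.321 in the libraries treated with TMG or its controls, and from 0.809 to 1.14 in 10 of the 11 OSMI-2 and matched DMSO libraries. DMSO 6 h library a of the OSMI-2 experiment stood apart at 0.371, and within its group it had the highest CPM for 7 of the 8 genes and the lowest for CLK3. Listed detained introns made up 0.756% to 1.21% of the counts in the DMSO 6 h libraries of the OSMI-2 experiment and 0.232% to 0.328% in its other libraries. The main share changes called after OSMI-2 at 6 h are given with and without library a. Most gene changes of that comparison and most changes in DMSO over time are given only with it. Levels are not compared between the experiments, because library composition and experiment cannot be told apart.

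Within each experiment the genes spanned a wide range of expression per kilobase of exon. In the TMG experiment TRA2B was highest, with a median of 113 CPM per kb (lowest 94.6, highest 137, 12 libraries), above every value of the other 7 genes. Below it came TRA2A (63.6, from 48.8 to 82.2), CLK2 (56.6, from 44.1 to 68.9), SRPK1 (48.1, from 44.7 to 50.9) and CLK1 (44.7, from 36.8 to 50.5). The ranges of these neighbours overlapped, so their order was not separated by the spread of the libraries. CLK3 followed at 19.1 (14.0 to 24.3), then SRPK2 at 12.2 (10.8 to 12.6) and CLK4 at 7.60 (6.13 to 8.59), each apart from its neighbours. In the OSMI-2 experiment the highest medians were those of CLK2 (43.1) and TRA2B (38.3), followed by CLK3 (29.5) and TRA2A (26.3). TRA2B (26.8 to 72.7) and TRA2A (21.5 to 57.6) overlapped with each of the others, whereas CLK2 (37.6 to 91.8) lay above CLK3 (25.2 to 32.4) throughout. SRPK1 stood at 9.63, CLK1 at 8.37, SRPK2 at 2.32 and CLK4 at 1.08, so the more weakly expressed member was SRPK2 of the SRPK pair and CLK4 of the CLK family in both experiments.

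**Figure D1:**
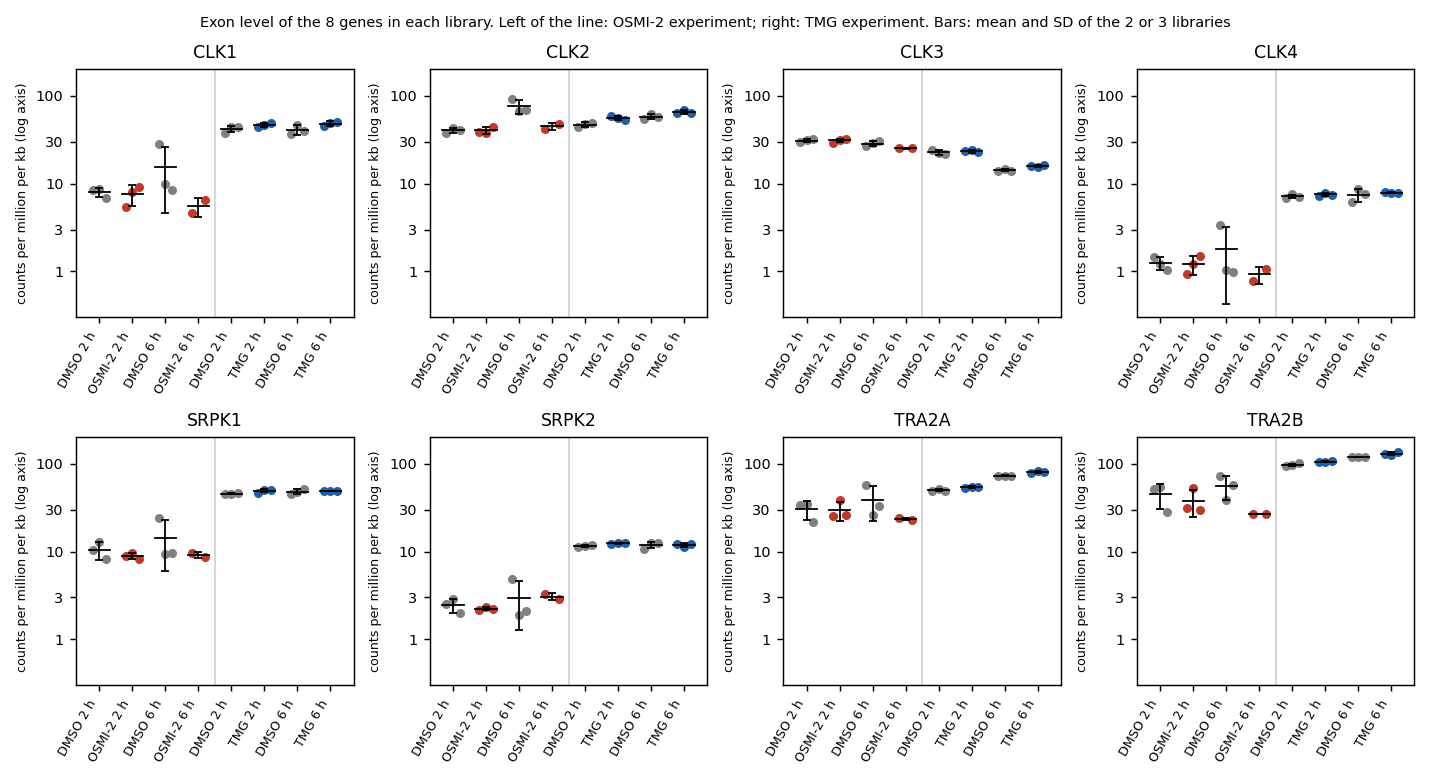
Level of each of the 8 genes in every library, in CPM per kb of exon on a log axis, by group; each point is 1 library and black bars are the mean and SD of the 2 or 3 libraries. TRA2B and CLK2 lie near the top and SRPK2 and CLK4 at the bottom in both experiments, and DMSO 6 h library a of the OSMI-2 experiment lies above its 2 partners for 7 of the 8 genes.

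Detained introns were found in CLK1, CLK2, CLK3 and SRPK1. The CLK1 bin (E011, 1022 bases, chr2:201724939-201725960 on hg19) has the width of intron 3 of CLK1-201, directly before exon 4. In CLK2 both introns that flank exon 4 are listed: intron 3 (E013, 692 bases, chr1:155238587-155239278) and intron 4 (E011, 348 bases, chr1:155238151-155238498). CLK3 has intron 3 (E005, 1894 bases, chr15:74912567-74914460) and intron 12 (E015, 674 bases, chr15:74921374-74922047). The SRPK1 bin is intron 13 of SRPK1-201 (E003, 4105 bases, chr6:35806207-35810311). Intron 3 was thus a listed detained intron in CLK1, CLK2 and CLK3. CLK4, SRPK2, TRA2A and TRA2B have no listed detained intron. Below, the share of a bin is its count as a percentage of the count over all bins of the gene that are not detained introns.

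After 6 h of OSMI-2, 5 of the 6 detained introns held a smaller share of their gene than in the matched DMSO libraries: both introns of CLK2, both of CLK3 and the intron of SRPK1. Across all genes 82.8% of the 4616 detained introns tested had a lower share in this comparison, so the count in these genes, 5 of 6, is close to that background. The median change was -1.51 on the log2 scale over the 6 introns and -1.63 over all detained introns.

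CLK2 intron 4 (E011) held 5.45%, 5.92% and 4.42% in the DMSO 6 h libraries and 1.35% and 1.57% after OSMI-2. Intron 3 (E013), on the other side of exon 4, held 6.45%, 6.60% and 6.24% against 1.77% and 2.25%. The groups did not overlap for either intron. The log2 change of the share was -1.83 (SE 0.12, adjusted p = 7.84e-06) for intron 4 and -1.68 (SE 0.095, adjusted p = 5.03e-06) for intron 3, with 3 DMSO and 2 OSMI-2 libraries. Without DMSO 6 h library a the changes were -1.80 and -1.68.

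CLK3 intron 3 (E005) held 9.69%, 11.2% and 8.86% with DMSO and 3.45% and 4.34% with OSMI-2, a log2 change of -1.35 (SE 0.12, adjusted p = 3.05e-05). CLK3 intron 12 (E015), near the other end of the gene, held 5.69%, 5.36% and 5.48% against 3.33% and 3.5% (log2 change -0.69, SE 0.095, adjusted p = 6.43e-04). Both introns fell in both OSMI-2 libraries, and the measured fall was larger for intron 3 than for intron 12; that difference was not tested. Without library a they were -1.36 and -0.66.

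The intron of SRPK1 had the largest log2 change of the 6 in share. It held 3.46%, 3.63% and 2.46% with DMSO (163, 83 and 61 counts) and 0.665% and 0.830% with OSMI-2 (17 and 29 counts), a log2 change of -2.03 (SE 0.20, adjusted p = 6.49e-05). Without library a it was -1.96.

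CLK1 was the exception. Its intron 3 (E011) held 9.24%, 9.59% and 9.42% of the gene with DMSO 6 h and 8.70% and 8.10% after OSMI-2. The OSMI-2 values lay below the DMSO values, but the log2 change of -0.15 (SE 0.15) had an adjusted p of 0.676. CLK1 thus differed from CLK2 and CLK3 in the call for the same intron of the gene; the difference between the genes was not tested.

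**Figure D2:**
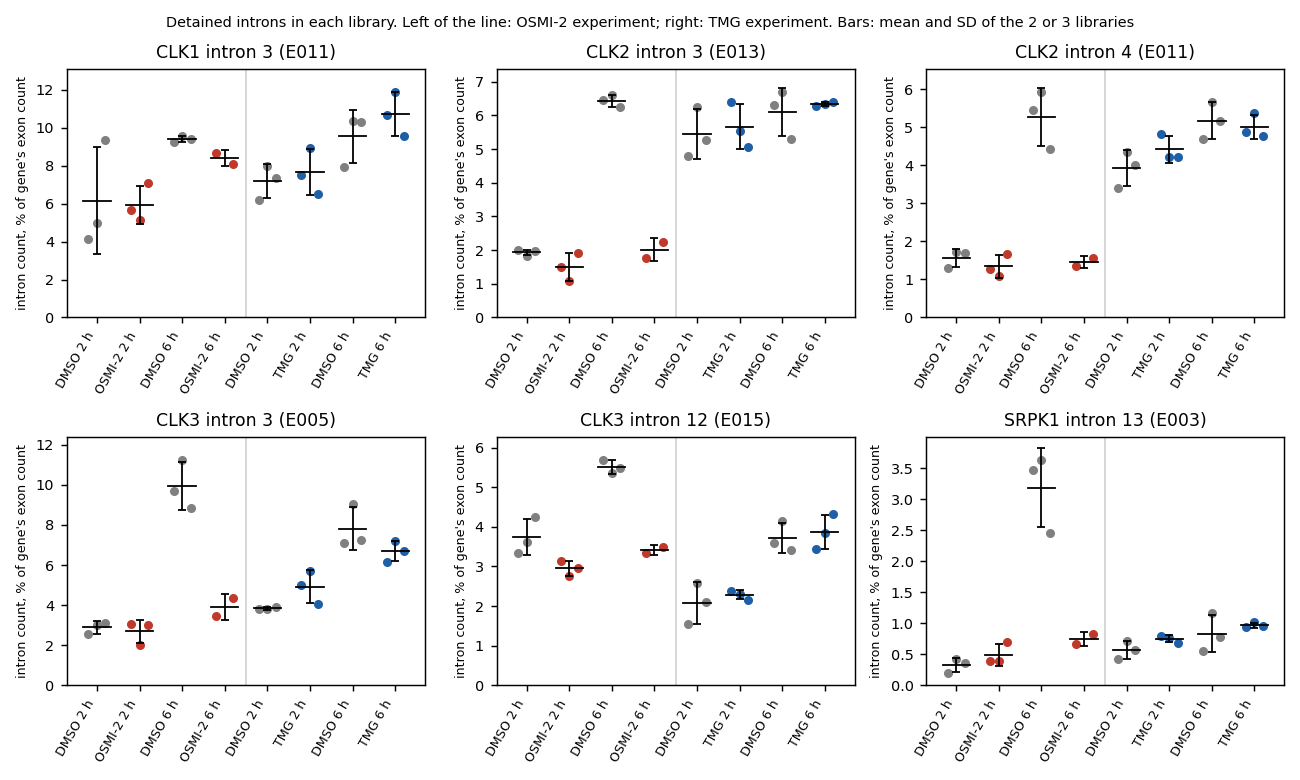
Share of each of the 6 detained introns in every library, as a percentage of the count of its gene; each point is 1 library and groups are along the x axis. The DMSO 6 h libraries of the OSMI-2 experiment lie above the other groups of that experiment for the introns of CLK2, CLK3 and SRPK1, whereas CLK1 intron 3 is at 9.24% to 9.59% with DMSO and 8.10% to 8.70% with OSMI-2 at 6 h. Black bars are the mean and SD of the 2 or 3 libraries.

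Taken as counts scaled to the library and not to the gene, 5 of the 6 introns were lower after OSMI-2 at 6 h, where 86.3% of all 4684 detained introns tested were lower. The log2 changes were -2.33 for SRPK1 intron 13, -2.19 for CLK2 intron 4, -2.02 for CLK2 intron 3, -1.18 for CLK1 intron 3 (adjusted p = 2.94e-04) and -1.16 for CLK3 intron 3. CLK3 intron 12 was at -0.50 (adjusted p = 0.0847). For CLK1, the intron count fell by 1.18 while the gene count was at -1.03, which is why its share was similar. These values depend on the scaling: with factors from the detained introns alone, whose median then moved from -1.55 to -0.073, CLK1 intron 3 was at 0.33, CLK3 intron 3 at 0.30 and CLK3 intron 12 at 0.96, and the last was called higher. Without library a the fall of CLK1 intron 3 was 0.62 and missed the threshold (adjusted p = 0.0651).

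The exonic counts of the 8 genes did not pass the test after OSMI-2 at 6 h: 0 of 8 with edgeR and 0 with DESeq2, where 4.73% of all genes were called, and 2 of 8 had an unadjusted p under 0.05. CLK1 had 52.4, 18.7 and 15.9 CPM with DMSO and 8.59 and 12.2 with OSMI-2, a log2 change of -1.03 (SE 0.36, adjusted p = 0.0708). Its OSMI-2 values lay below all DMSO values, and the first DMSO value is that of library a. TRA2B had 235, 124 and 184 CPM against 87.1 and 86.7 (log2 change -0.67, SE 0.31, adjusted p = 0.175), again without overlap. CLK2 had 212, 154 and 158 against 97.6 and 111 CPM (log2 change -0.36, SE 0.31, adjusted p = 0.495). Here and below, CPM are scaled to the library total alone. The log2 changes also use scaling factors over genes and introns, so the sizes of the 2 can differ. The median change of all genes was 0.15 with these factors and -0.098 with factors over genes only. SRPK2 had 25.2, 9.75 and 10.7 CPM with DMSO and 16.9 and 14.8 with OSMI-2, which overlap. Its log2 change was in the other direction at 0.49 (SE 0.34, adjusted p = 0.396), and without library a it was called higher at 0.92 (adjusted p = 0.00303). That fit called 5287 genes in all, where the fit with library a called 591, and simulated gene calls of this comparison were 57.5% false with the introns as deposited. The remaining 4 genes lay between -0.49 and 0.18, and for CLK3, CLK4 and SRPK1 the sign depended on the scaling or the libraries used.

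Outside the introns, the TRA2A poison exon showed the largest called change among the TRA2 bins after OSMI-2 at 6 h. It held 5.22%, 4.86% and 3.84% of TRA2A with DMSO and 2.12% and 2.51% with OSMI-2, with no overlap. The log2 change was -0.99 (SE 0.14, adjusted p = 7.59e-04), and -0.90 without library a. In the same comparison the share of TRA2A bin E011, at the first exon, rose from 7.63%, 6.81% and 7.88% to 10.5% and 9.19% (log2 change 0.40, SE 0.088, adjusted p = 0.0160); it was not called without OSMI-2 library a (0.31, adjusted p = 0.277) or without DMSO 6 h library b (0.34, adjusted p = 0.0561). The TRA2B poison exon was at 1.12%, 0.592% and 0.712% against 0.429% and 0.668%, which overlap, and neither of its bins was called.

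CLK2 bin E002 fell as well. It is 136 bases long at chr1:155233364-155233499 on hg19, next to the last bin of the gene, and the tables leave it unclassified. It held 2.11%, 1.96% and 1.78% of CLK2 with DMSO at 6 h and 0.437% and 0.750% with OSMI-2, a log2 change of -1.73 (SE 0.19, adjusted p = 1.18e-04), and -1.67 without library a. Over all 112 tested bins of the 8 genes, 10 were lower and 2 higher, against 4.98% lower and 0.725% higher of all 130782 bins. The other called bins were TRA2B E001 at 0.30, SRPK1 E001 at -0.24, TRA2B E005 at -0.20 and CLK2 E001 at -0.18, and each of these 4 lost its call when at least 1 library was left out.

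After 2 h of OSMI-2 none of the genes, introns or bins passed the test. By edgeR 0 of 8 genes and 0 of 6 introns were called, with 0 and 0 at an unadjusted p under 0.05 and 0 and 0 by DESeq2. By limma 0 of 109 bins were called, with 2 at an unadjusted p under 0.05, both introns. The background was also low, at 0% of genes, 0.131% of detained introns and 0.00167% of bins. CLK2 intron 3 held 1.99%, 1.83% and 1.97% with DMSO and 1.49%, 1.09% and 1.91% with OSMI-2, and CLK3 intron 12 held 3.34%, 3.63% and 4.24% against 3.13%, 2.75% and 2.97%. CLK1 intron 3 varied widely among the DMSO libraries at this time, which held 4.12%, 4.96% and 9.37%, from 32, 35 and 62 counts. SRPK1 intron 13 had 5, 11 and 7 counts in the DMSO libraries and 12, 18 and 17 with OSMI-2, and its log2 change of share was 0.50 with an SE of 0.35.

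After 2 h of TMG the TRA2A poison exon held a larger share of its gene than with DMSO. It was the 1 bin of 116 tested that passed, where 0.141% of all bins, and 0.0376% of the 132836 bins that are not detained introns, were higher. It held 1.93%, 2.26% and 2.45% of TRA2A with DMSO (105, 146 and 127 counts) and 3.10%, 3.45% and 3.28% with TMG (172, 198 and 201 counts). All TMG libraries were above all DMSO libraries, the log2 change was 0.57 (SE 0.093, adjusted p = 0.0108), and in the authors' deposited table the bin had a log2 change of 0.56 and an adjusted p of 0.000101. The call was lost without DMSO library a (0.47, adjusted p = 0.0595), without TMG library b (0.53, adjusted p = 0.101) and in a single fit of all 23 libraries. The TRA2B poison exon held 0.8%, 0.727% and 0.747% with DMSO and 0.845%, 0.925% and 0.907% with TMG, also without overlap, but neither bin passed. At the level of the gene TRA2A was at 0.07 (SE 0.051, adjusted p = 0.451).

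Among the kinases, CLK2 was the 1 gene of 8 called higher after 2 h of TMG, where 1.05% of all genes were higher. It had 102, 110 and 114 CPM with DMSO and 137, 129 and 121 with TMG, without overlap (log2 change 0.20, SE 0.053, adjusted p = 0.0156). Leaving out DMSO library b, TMG library a or TMG library b brought the adjusted p to 0.0539, 0.0715 and 0.0795. The scaled count of CLK2 intron 4 was higher too (log2 change 0.37, SE 0.12, adjusted p = 0.0495), where 9.43% of all detained introns were higher. That call was lost without DMSO library a (0.26, adjusted p = 0.221), DMSO library c (0.41, 0.0947), TMG library a (0.26, 0.294) or TMG library b (0.41, 0.122). As a share of the gene the same intron held 3.41%, 4.35% and 4.01% with DMSO and 4.83%, 4.21% and 4.22% with TMG, which overlap. CLK3 intron 3 held 3.82%, 3.79% and 3.93% against 5.01%, 5.69% and 4.04%, without overlap, and SRPK1 intron 13 held 0.420%, 0.710% and 0.571% against 0.802%, 0.769% and 0.683%. None of the 6 intron shares passed with limma, 3 of them had an unadjusted p under 0.05, and 3.55% of all detained introns had a higher share.

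After 6 h of TMG, 5 of 8 genes had an unadjusted p under 0.05 with edgeR. CLK1 alone was called higher, where 1.25% of all genes were higher. It had 68.8, 87.0 and 74.0 CPM with DMSO and 84.1, 92.4 and 94.3 with TMG, so that the groups overlapped (log2 change 0.25, SE 0.073, adjusted p = 0.0497). The call stood just inside the threshold and was lost without DMSO library c (0.22, adjusted p = 0.134) or without TMG library a, b or c (0.29, 0.24 and 0.22, with adjusted p values of 0.0853, 0.189 and 0.227). CLK2, at 126, 144 and 133 against 149, 159 and 146 CPM, was at 0.19 (SE 0.060, adjusted p = 0.0725), and TRA2B, at 381, 382 and 381 against 421, 401 and 442 CPM, was at 0.16 (SE 0.057, adjusted p = 0.112). CLK3 was at 0.17 (SE 0.070, adjusted p = 0.157) and TRA2A at 0.14 (SE 0.056, adjusted p = 0.137). The TMG values of CLK2, CLK3, TRA2A and TRA2B lay above all DMSO values, unlike those of CLK1. CLK4, SRPK1 and SRPK2 were at 0.10, 0.039 and 0.012, with overlap. Without DMSO library a, 4 of the 8 genes passed, in a fit that called 1250 genes in all. No detained intron was called by edgeR or DESeq2 (0 of 6, with 1 at an unadjusted p under 0.05, background 0.191%), and no bin share by limma (0 of 115, with 4 at an unadjusted p under 0.05, background 0.0121%). CLK1 intron 3 held 7.96%, 10.4% and 10.3% with DMSO and 10.7%, 11.9% and 9.59% with TMG. The TRA2A poison exon held 1.39%, 2.42% and 2.11% against 2.25%, 2.54% and 2.18%, overlapping at this time.

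**Figure D3:**
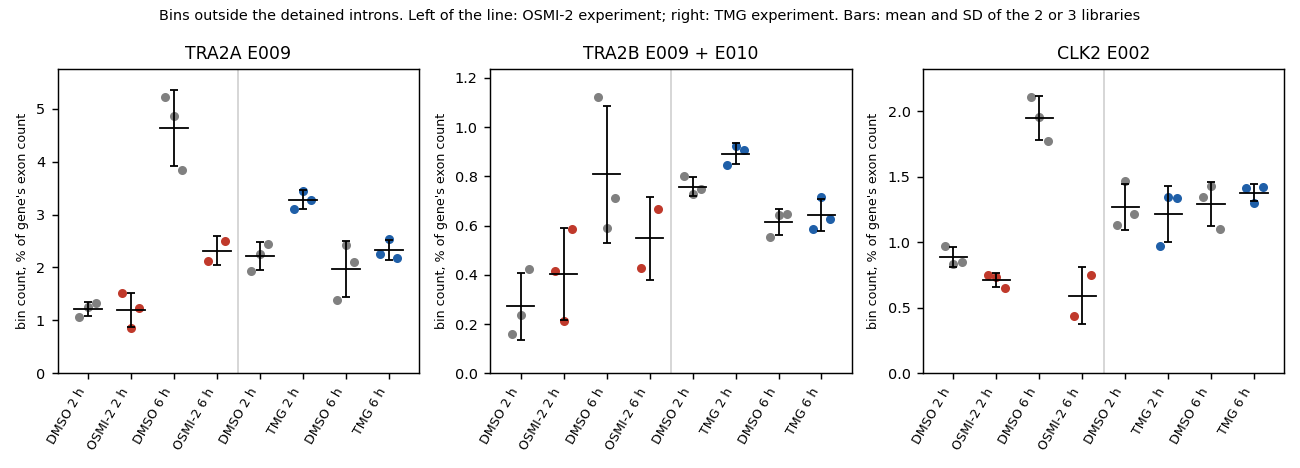
Shares of the TRA2A and TRA2B poison exons and of CLK2 bin E002 in every library, as a percentage of the count of the gene; each point is 1 library, with the mean and SD as black bars. The TRA2A exon is at 3.10% to 3.45% after 2 h of TMG against 1.93% to 2.45% with DMSO, and at 3.84% to 5.22% in the DMSO 6 h libraries of the OSMI-2 experiment.

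The DMSO groups themselves differed between 6 h and 2 h. These contrasts use the same DMSO libraries as the drug comparisons, so they are described as values of the controls and not as separate support. In the OSMI-2 experiment 9 of 108 bins had a higher share at 6 h and 2 a lower one, at a background of 7.65% and 2.86%. SRPK1 intron 13 rose from 0.206%, 0.422% and 0.353% to the 2.46% to 3.63% given above, a log2 change of 3.15 (SE 0.26, adjusted p = 1.03e-05). CLK3 intron 3 rose by 1.77 from 2.54%, 2.99% and 3.13%, CLK2 intron 4 by 1.73 from 1.30%, 1.72% and 1.69%, CLK2 intron 3 by 1.72 and CLK3 intron 12 by 0.56. The background for detained introns was 83.6% higher, with a median of 1.67. CLK1 intron 3 was again the intron that did not pass (0.69, adjusted p = 0.086).

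The poison exons rose with time in the same libraries. The TRA2A exon held 1.07%, 1.26% and 1.32% in the DMSO 2 h libraries, so that its share was higher at 6 h by 1.90 on the log2 scale (SE 0.14, adjusted p = 5.67e-06). The TRA2B exon held 0.159%, 0.236% and 0.423% at 2 h, and its bins were higher at 6 h by 1.46 (E009, adjusted p = 0.0180) and 1.64 (E010, adjusted p = 0.0192), from 4 to 14 counts a bin at 2 h. Both TRA2B calls were lost without DMSO 2 h library a (adjusted p = 0.0617 and 0.0691) or DMSO 6 h library a (0.104 and 0.109), and that of E010 also without DMSO 6 h library b (0.0625). CLK2 E002 rose by 1.11. The last bins of both TRA2 genes fell: TRA2A E001 by 0.41 and TRA2B E001 by 0.40. After OSMI-2 at 6 h CLK2 intron 4 was at 1.35% and 1.57%, within the 1.30% to 1.72% of DMSO at 2 h. CLK3 intron 3 (3.45% and 4.34%) and SRPK1 intron 13 (0.665% and 0.830%) lay above their DMSO 2 h values of 2.54% to 3.13% and 0.206% to 0.422%. The design has no test of that pair of groups, and treatment and time differ between them.

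In the TMG experiment, time in DMSO also came with higher shares of CLK introns. CLK3 intron 3 was at 7.12%, 9.06% and 7.26% at 6 h and at 3.79% to 3.93% at 2 h (log2 change 1.01, SE 0.11, adjusted p = 6.68e-05). CLK3 intron 12 rose by 0.87 (SE 0.18, adjusted p = 0.00783), from 1.54%, 2.59% and 2.09% to 3.59%, 4.15% and 3.41%. CLK1 intron 3 rose by 0.41 and CLK2 intron 4 by 0.40, and both calls were lost without several single libraries, among them DMSO 2 h library a (adjusted p = 0.158 and 0.0926) and DMSO 6 h library b (0.152 and 0.103). Here 6 of 116 bins were higher and 3 lower, against 1.75% and 2.48% of all bins and 18.5% higher among detained introns. The other 5 called bins were CLK4 E010 at -0.40, CLK1 E014 at -0.30, CLK1 E001 at 0.26, TRA2A E002 at 0.25 and SRPK1 E010 at -0.25. CLK4 E010 has the 91-base width of exon 4 of that gene, and its call was lost without each of 5 of the 6 libraries, at adjusted p values from 0.108 to 0.178. The number of called bins ran from 2 without DMSO 6 h library b to 20 without DMSO 6 h library a. It was 3 without DMSO 2 h library a or c or DMSO 6 h library c. Over the bins of all genes, these fits called 2997, 9781, 2886, 2819 and 3553 in that order.

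At the level of the gene, 4 of the 8 genes differed between DMSO at 6 h and at 2 h in the TMG experiment. At 6 h 3 were higher and 1 lower, at a background of 16.6% higher and 29.6% lower. Calls were thus frequent among all genes, and whether the 8 differed from that background was not tested. TRA2A rose from 110, 115 and 111 CPM to 163, 164 and 164 CPM (log2 change 0.50, SE 0.066, adjusted p = 2.76e-06). CLK3 fell from 55.0, 50.6 and 49.9 to 32.2, 33.5 and 32.0 CPM (log2 change -0.73, SE 0.077, adjusted p = 1.17e-07). CLK2 rose by 0.25 (SE 0.068, adjusted p = 0.00507) and TRA2B by 0.22 (SE 0.066, adjusted p = 0.00877; 0.0548 without DMSO 2 h library b). CLK3 thus had less exonic count and a larger share of both introns at 6 h. A share is divided by the exonic count, so these changes are not separate. Scaled intron counts were not tested over time in DMSO. In the OSMI-2 experiment 0 of 8 genes passed by edgeR and 1 by DESeq2, with 1 at an unadjusted p under 0.05 and a background of 18.5%. Without library a 4 passed, in a fit that called 4586 genes in all where the full fit called 2288. CLK3 had 67.5, 72.1 and 73.0 CPM at 2 h and 61.0, 65.8 and 69.8 at 6 h there, at a log2 change of -0.65 (SE 0.25, adjusted p = 0.0634). It ran from -0.75 to -0.37 over 9 alternatives, those of scaling and of libraries left out among them, and the median of all genes moved from -0.25 to 0.04 with TMM over genes only.

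**Figure D4:**
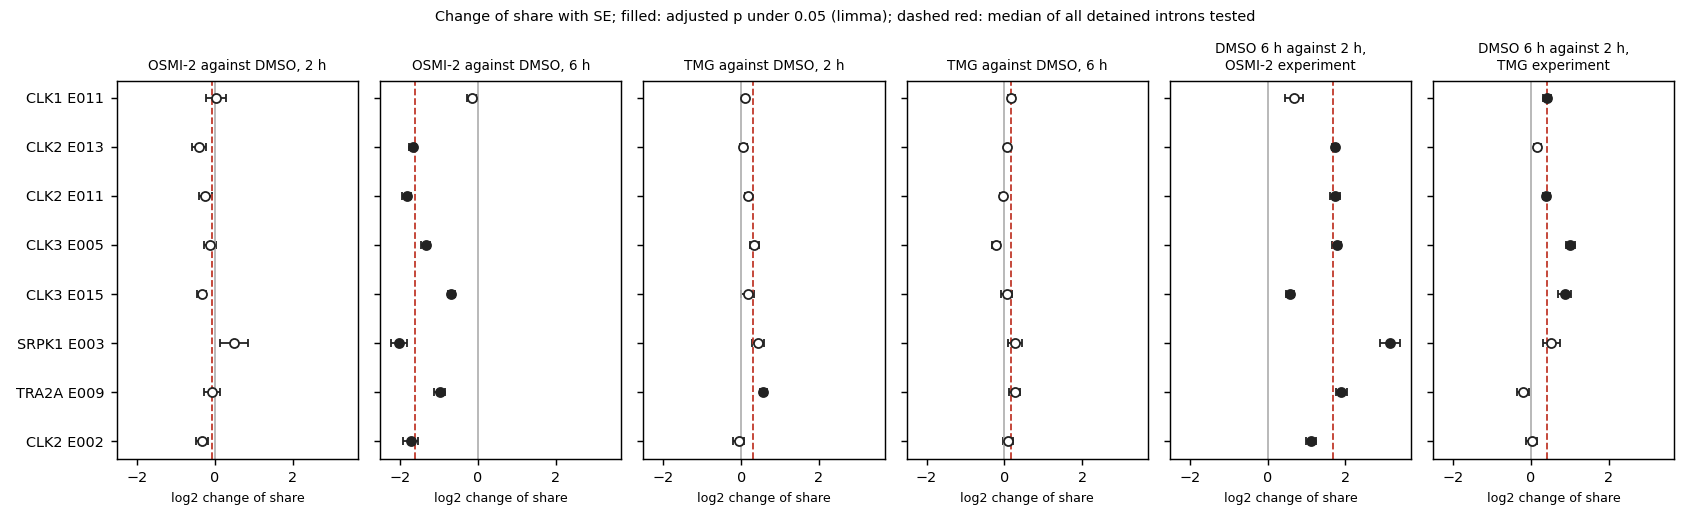
Log2 change of the share of the detained introns and the other named bins in the drug comparisons and in DMSO over time; points are estimates (filled where the adjusted p is under 0.05), bars are standard errors, and the dashed red line is the median of all detained introns tested. At 6 h of OSMI-2 the introns of CLK2, CLK3 and SRPK1 lie between -2.03 and -0.69 while CLK1 intron 3 lies at -0.15, and after 2 h of TMG the TRA2A poison exon lies at 0.57.

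The effects of the drugs, each against its own DMSO libraries, were also set against each other. At 6 h the effect on the share differed in 12 of 115 bins, where 4.47% of all bins and, in the lower direction, 71.2% of detained introns differed. These included 5 of the 6 introns, with OSMI-2 the lower in each; CLK1 intron 3 was not among them. At 2 h 0 of 115 bins differed by limma, with 5 at an unadjusted p under 0.05 and a background of 0.00223%. For gene counts edgeR called 0 of 8 at 2 h, with 0 at an unadjusted p under 0.05, 0 by DESeq2 and a background of 0%. At 6 h it called 0 of 8, with 2 at an unadjusted p under 0.05 and 1 by DESeq2, at a background of 20.2%.

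The 6 cassette bins gave no call in any of the comparisons in which they were tested. They are CLK1 E007 and E010, CLK3 E009 and E012, CLK4 E012 and SRPK1 E002, and limma called 0 of 5 or 6 in each comparison, with at most 2 at an unadjusted p under 0.05. CLK1 E010 is exon 4 printed above, the exon after the detained intron E011. It held 4.38%, 4.82% and 5.89% of CLK1 in DMSO 2 h of the OSMI-2 experiment, 5.21%, 5.05% and 4.53% in DMSO 6 h and 3.31% and 4.67% after OSMI-2 at 6 h. In the TMG experiment it was at 5.78% to 7.30% in all 12 libraries. Its lowest adjusted p over the comparisons was 0.176, and CLK1 E007 stayed between 7.10% and 10.8% in all libraries. The cassette bin of CLK4 had 1 to 9 counts in the OSMI-2 experiment and 25 to 48 in the other, and it was tested in 5 comparisons. A read is counted in each bin it touches, so a bin share is not a measure of the fraction of transcripts that include the exon.

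The genes on which these kinases act, the SR proteins, and other partners of SR protein phosphorylation were followed as lists. Of 11 tested SR protein genes, 1 fell after OSMI-2 at 6 h, where 4.73% of all genes were called: SRSF5, a splicing activator of the SR family, at -1.09 (SE 0.33, adjusted p = 0.0337). In the simulation of this comparison with the introns as deposited, 57.5% of gene calls were false. The median of the list was -0.48, against 0.15 over all genes. After 2 h of TMG, where 1.05% of all genes were higher, 1 of 11 rose, SRSF10, at 0.16 (SE 0.050, adjusted p = 0.0406). After OSMI-2 at 2 h 0 of 11 passed with edgeR, with 0 at an unadjusted p under 0.05, and after TMG at 6 h 0 of 11, with 3. With time in DMSO, 3 rose and 5 fell in the TMG experiment, where 16.6% of all genes rose and 29.6% fell. Among them were SRSF2 at -0.73 and SRSF3 at -0.47. In the OSMI-2 experiment, where 18.5% of all genes were called, 1 fell, SRSF2 at -0.89. The second list held 11 such partners: kinases, catalytic subunits of protein phosphatase 1, CLASRP and TNPO3. After 2 h of TMG 1 of 10 tested rose, DYRK1B, at 0.32 (adjusted p = 0.0113), where 1.05% of all genes were higher. With edgeR 0 passed after OSMI-2 at 2 h and 6 h and TMG at 6 h, with 0, 2 and 4 at an unadjusted p under 0.05. In DMSO over time 2 of 11 fell among the OSMI-2 controls, where 18.5% of all genes were called. These were PPP1CC and PPP1CA, catalytic subunits of protein phosphatase 1, by 0.98 and 0.85. The median of all genes there was -0.25, and 0.04 with TMM over genes only, which called 1136 genes in place of 2288. Among the TMG controls, where 16.6% of all genes rose and 29.6% fell, 1 of 10 rose and 4 fell. The 4 included DYRK2 at -0.78 and DYRK3 at -0.53. In the difference between the drugs at 6 h, where 20.2% of all genes were called, 2 of 11 partners were higher with OSMI-2, DYRK2 at 1.25 and PPP1CA (adjusted p = 0.0320), and 6 had an unadjusted p under 0.05. The median of all genes in that contrast was 0.36, and 0.085 with TMM over genes only, which called 1017 genes in place of 2543.

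The gene most like each of the 8 over the 23 libraries was found by Pearson correlation of log2 CPM centred within each experiment, among 11252 genes. These were ZNF669 for CLK1 (r = 0.93), SHB for CLK3 (0.96), GFM1 for SRPK1 (0.95), FAM120B for SRPK2 (0.96), TSC22D1 for TRA2A (0.95) and ASB8 for TRA2B (0.95). For CLK2 and CLK4 the highest values, 0.89 and 0.92, belonged to merged groups of overlapping genes that start with NBPF10 and RP11-57H12.6. The points share libraries, depth and GC content, and DMSO 6 h library a is among them, so the values describe these libraries alone.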

How the data were processed

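Per the labels, polyA RNA of HEK293T cells was made into stranded mRNA libraries. STAR and hg19 are named in the submitters' processing notes; counter, annotation and use of strand are not given in the sources used here. The authors deposited, per the file headers, raw counts per bin and library, a log2 fold change of bin usage and a p-value and adjusted p-value per bin. No count column was without a group (0 unused).

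The 8 members and all lists were chosen with earlier results of these data known. A gene value is the sum of its bins that are not detained introns. Since a read is counted in each bin it touches (1.288 to 1.466 bin counts per index read), gene sums exceed read numbers. Genes and detained introns were tested with edgeR 4.0.16 (quasi-likelihood, filterByExpr, TMM factors over genes and introns together), and bin shares with limma 3.58.1 on log2((bin + 1)/(gene + 1)), with a variance trend on mean log2 bin count, for bins and genes with a mean of at least 10 counts. Each comparison was fitted on its own libraries; p-values were adjusted by Benjamini-Hochberg over all features, at 0.05. Alternatives were DESeq2 1.42.0, other scaling factors, filters and pseudocounts, all libraries in a single fit, the authors' adjusted p and leaving out each library. CPM uses the sum of gene and intron counts. Named were all 8 genes, their detained introns and cassette bins, up to 3 other called bins per comparison by size, up to 2 genes per list and comparison, and the most correlated gene; the other called bins and the TRA2B poison exon were named after their values were seen. The lists were the SR proteins SRSF1 to SRSF12 (SRSF8 not tested) and 11 partners (SRPK3 not tested in the TMG experiment).

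Tested on simulated counts for OSMI-2 at 6 h (12473 genes), 99% of genes changed by 1 and 56% changed by 0.5 on the log2 scale were recovered, with 5.49% false calls when introns did not change. With the introns as deposited, 57.5% of gene calls were false under the TMM factors used here and 5.49% with factors over genes only. For TMG at 2 h (12352 genes) recovery was 100% and 74%, with 3.33% false. Shares changed by 1 were recovered in 83% of 200 bins for OSMI-2 at 6 h and 91% for TMG at 2 h. Replicate libraries were compared by chi-square, and none agreed within sampling noise.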

Additional observations from a re-analysis of the deposited data

Results flagged for a closer look

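At 6 h the effect of OSMI-2 on the share differed from that of TMG in 12 of 115 tested bins (limma, difference of the 2 effects, each against its own DMSO libraries, adjusted p under 0.05), at a background of 4.47% of all bins and 71.2% lower among detained introns. The difference of the log2 changes, OSMI-2 minus TMG, was -2.30 for SRPK1 intron 13 (E003), -1.79 for CLK2 intron 4 (E011), -1.74 for CLK2 intron 3 (E013), -1.13 for CLK3 intron 3 (E005) and -0.74 for CLK3 intron 12 (E015). It was -1.83 for CLK2 E002 and -1.26 for the TRA2A poison exon (E009). For these 7 bins the effect of OSMI-2 was itself called and that of TMG at 6 h was not. Without DMSO 6 h library a of the OSMI-2 experiment the 7 differences stayed called, at -2.24, -1.76, -1.74, -1.14, -0.72, -1.77 and -1.17 in that order, and that of CLK3 intron 12 was lost without OSMI-2 library a (-0.71, adjusted p = 0.0856).

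The other 5 bins were TRA2A E011 at 0.48, SRPK1 E006 at 0.52, CLK2 E012 at 0.40, TRA2B E001 at 0.26 and SRPK1 E001 at -0.29. CLK2 E012 is exon 4, between the 2 detained introns, and held 3.67%, 4.08% and 4.02% of CLK2 in DMSO at 6 h and 4.48% and 4.84% after OSMI-2, while it held 5.09%, 4.54% and 4.79% in the DMSO and 4.11%, 4.55% and 4.34% in the TMG libraries. Each of the 5 lost its call without at least 1 library, for example CLK2 E012 without DMSO 6 h library a of the OSMI-2 experiment (0.35, adjusted p = 0.0771) and SRPK1 E001 without OSMI-2 library b (-0.22, adjusted p = 0.0912). At 2 h limma called 0 of 115 such differences, with 5 at an unadjusted p under 0.05.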

How the results depend on the processing

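For the genes, introns and bins that passed the test, 478 recomputed values kept direction and call, 99 kept the direction and lost the call, and 2 reversed; features that had not passed, some of which changed sign, are not in these counts. No paired analysis was possible because the count columns carry letters and no replicate numbers of the labels. Counts of called genes among the 8 were 3 for OSMI-2 at 6 h, 0 for TMG at 2 h and 0 for TMG at 6 h in a single fit of all libraries. Over all genes that fit called 5989, 0 and 2. For TMG at 6 h the counts among the 8 were 2 by DESeq2 and 0 with median-of-ratios factors, where 876 and 701 genes were called in all. For DMSO over time in the OSMI-2 experiment they were 1 by DESeq2 and 1 with median-of-ratios factors, where 3189 and 2968 were called in all. For the difference between the drugs at 6 h they were 1 by DESeq2, 1 with median-of-ratios factors and 1 with TMM over genes only. There 5948, 5429 and 1017 were called in all. With TMM over detained introns alone 1 intron was called for OSMI-2 at 6 h, and CLK1 intron 3 (0.33) and CLK3 intron 3 (0.30) reversed. For TMG at 2 h, 0 introns were called by DESeq2, with TMM over introns alone, without the filter or with all libraries in a single fit, which also gave 0 bin shares. By the authors' adjusted p 19 bins were called for OSMI-2 at 6 h, where 9849 were called over all genes. Leaving out 1 library at a time gave 0 to 1, 0 to 1, 0 to 4, 0 to 4, 3 to 4 and 0 to 4 genes for OSMI-2 at 6 h, TMG at 2 h, TMG at 6 h, DMSO over time in the OSMI-2 and TMG experiments, and the drug difference at 6 h. It gave 5 to 5, 0 to 3 and 0 to 1 introns for the first 3 of these, and 8 to 10, 0 to 1, 0 to 0, 9 to 13, 2 to 20 and 8 to 13 bin shares in the same order. The counts of 4 genes in the ranges of 0 to 4 came without a DMSO 6 h library a. Those fits called 1250 genes in all for TMG at 6 h, 4586 for the OSMI-2 controls over time and 9389 for the drug difference. With 1 library left out, calls over all detained introns ran from 58 to 520 for TMG at 2 h and from 5 to 330 at 6 h. Calls over all bin shares ran from 34 to 231 and from 15 to 88. For DMSO over time they ran from 7613 to 15646 in the OSMI-2 experiment and from 2819 to 9781 in the TMG experiment. The called introns were not the same in each fit for OSMI-2 at 6 h: without DMSO 6 h library a, CLK1 intron 3 was not among them. With OSMI-2 at 6 h reduced to 1 library, that library is assumed to vary like the others. The all-gene median for OSMI-2 at 6 h was 0.15, 0.30 with median-of-ratios factors and -0.098 with TMM over genes only. A term for the GC slope, with a limit chosen after the slopes were seen, gave 0 genes, 0 introns and 0 bins for OSMI-2 at 2 h. Counts were low for SRPK1 intron 13 (5 to 18) at 2 h and CLK4 E012 (1 to 9) in the OSMI-2 experiment.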
